A study of Mus musculus with 13 samples.

Results

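The IFIT family (interferon-induced proteins with tetratricopeptide repeats) was followed in whole brain of mice that carried the P195A change in Adar, the gene for the RNA editing enzyme ADAR1. The members were chosen by symbol as Ifit1, Ifit2, Ifit3 and Ifit3b, which are 4 of the 54307 entries of the count table, and each was read in all 13 libraries. In P195A/- brains, where a null Adar allele stands opposite P195A, Ifit1 RNA averaged 5.61 ± 1.06 CPM (counts per 1000000 counts of a library; SD, n = 3), against 2.54 ± 0.818 CPM in WT brains (n = 3). Ifit3 RNA averaged 6.92 ± 1.07 CPM in P195A/- brains and 4.61 ± 1.31 CPM in WT brains. Ifit2 RNA, at 10.9 ± 2.09 CPM in P195A/- brains and 11.6 ± 0.892 CPM in WT brains, had no such gap, and Ifit3b lay in between. No member passed an adjusted p under 0.05 in any comparison of 2 genotypes when edgeR's quasi-likelihood test was adjusted over all genes tested. An unadjusted p under 0.05 was reached by Ifit1 in 3 and by Ifit3 in 4 of the 6 comparisons, and by Ifit2 and Ifit3b in 0. Ifit1 was higher in P195A/- brains in its 3. Ifit3 was higher in P195A/- against P195A/P195A and P195A/+ brains, and lower in P195A/P195A and in P195A/+ against WT brains. Of all genes, 4.58% had such a p and were higher in P195A/- against WT brains, 3.19% against P195A/P195A brains and 5.11% against P195A/+ brains. In P195A/P195A against WT brains 2.94% of all genes had such a p and were lower, and in P195A/+ against WT brains 2.52%. As alternatives, limma-voom passed none of the 4 members, and DESeq2 passed Ifit1 and Ifit3 in P195A/- against P195A/P195A brains and gave the 4 members no adjusted p against WT brains.

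IFIT proteins are made when type I or type III interferon reaches a cell, and some members also when viral RNA is sensed directly. IFIT1 binds the capped end of RNAs that lack a methyl mark next to the cap, as many viral RNAs do, and blocks their translation. IFIT2 and IFIT3 bind to each other and, in human cells, to IFIT1, and mouse Ifit2 is known for restricting viruses that infect neurons. ADAR1 edits double-stranded RNA by turning adenosine into inosine, and its long p150 form is itself induced by interferon and carries the Za domain in which P195A lies. Loss of ADAR1 editing is known to let the sensor MDA5 bind a cell's own double-stranded RNA, which switches on interferon and with it the IFIT genes.

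The 4 genotypes were all on the C57BL/6 strain. P195A/- mice (n = 3) carried P195A opposite a null Adar allele, P195A/P195A mice (n = 4) carried it on both chromosomes, P195A/+ mice (n = 3) carried it opposite a wild-type allele, and WT mice (n = 3) had no altered allele. Every P195A/- mouse was 42 days old, P195A/P195A mice were 42, 42, 48 and 48 days old, P195A/+ mice were 43 days old, and WT mice were 48, 48 and 74 days old. Age and genotype therefore cannot be told apart between P195A/- and WT brains, between P195A/+ and WT brains, or between P195A/- and P195A/+ brains. Each genotype held 1 male, and the male WT mouse, replicate 3, was the one of 74 days. Each library came from 1 animal.

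The libraries held 13539148 to 20688387 estimated counts in mutant homozygotes and 15591470 to 22399005 in the other genotypes. Adar RNA lay between 196 and 204 CPM in P195A/- brains, 282 and 346 CPM in P195A/P195A brains, 232 and 245 CPM in P195A/+ brains, and 165 and 189 CPM in WT brains, and a point mutation cannot be read from such a level. Summed markers of neurons (5239 to 6055 CPM), astrocytes (6989 to 8719 CPM) and oligodendrocytes (6082 to 8028 CPM) were abundant in every library.

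All 6 genes of the Ifit cluster lie within 99.3 kb of chromosome 19 (GRCm38, GENCODE M21), and none overlaps another. In order along the chromosome they are Ifit2 (ENSMUSG00000045932, chr19:34550694-34576419, plus strand), Ifit3 (ENSMUSG00000074896, chr19:34583531-34588731, plus strand), Ifit1bl1 (chr19:34592891-34601956, minus strand), Ifit3b (ENSMUSG00000062488, chr19:34607970-34613401, plus strand), Ifit1bl2 (chr19:34617049-34640743, minus strand) and Ifit1 (ENSMUSG00000034459, chr19:34640871-34650009, plus strand). Ifit1bl1 and Ifit1bl2 are Ifit1-like relatives that the choice of members left out.

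Interferon acts on these genes through the interferon-stimulated response element, a promoter motif found before many interferon-induced genes. Its core was searched as GAAA, any 2 bases and GAAA on both strands, overlaps allowed, in RefSeq windows from 250 bases before to 50 bases after each gene's start (build GRCm38.p6). All 4 members had at least 1 window. Ifit1 held 2 matches, 104 and 85 bases before its RefSeq start, Ifit3 held 2 matches, 156 and 122 bases before, and Ifit3b held 2 matches, 188 and 154 bases before. The RefSeq starts of these 3 genes differ from the GENCODE starts given above. Neither of the windows for Ifit2 held one, which says only that these letters are not in those windows. Of all 32851 windows, 3.44% held a match, and of 27025 genes, 3.99% did so. Among 33 other interferon-induced genes with a window, 17 (51.5%) held one. The stretches that carry the matches are printed below on the plus strand, with the matches in capitals. Any part of the matches in the levels of the members was not tested. By GENCODE positions the first stretch, chr19:34640744-34640870, is the whole gap between the divergent genes Ifit1 and Ifit1bl2, which share both matches. The other stretches are chr19:34583363-34583452 before Ifit3 and chr19:34607759-34607848 before Ifit3b, and they are identical over all 90 bases.
Ifit1 and Ifit1bl2: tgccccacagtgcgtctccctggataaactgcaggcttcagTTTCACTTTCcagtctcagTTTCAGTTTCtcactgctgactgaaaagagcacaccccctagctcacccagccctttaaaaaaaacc
Ifit3: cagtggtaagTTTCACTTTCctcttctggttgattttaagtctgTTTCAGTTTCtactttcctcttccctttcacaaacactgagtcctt
Ifit3b: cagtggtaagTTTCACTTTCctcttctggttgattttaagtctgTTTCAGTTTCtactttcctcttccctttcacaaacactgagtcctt

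Ifit1, the cap-binding member, was read at 4.61, 6.71 and 5.50 CPM in P195A/- brains, at 1.497, 2.34, 2.70 and 1.83 CPM in P195A/P195A brains, at 1.75, 2.47 and 2.00 CPM in P195A/+ brains, and at 2.14, 2.00 and 3.48 CPM in WT brains. The 3 P195A/- libraries lay above all 10 other libraries, while the other 3 genotypes overlapped one another. The share of all genes with P195A/- libraries above those of all other genotypes at once was not counted. Taken singly, 9.59% of all genes had them above every WT library, 2.64% above every P195A/P195A library and 8.37% above every P195A/+ library. For Ifit1 the highest library outside P195A/- was WT replicate 3, from the mouse of 74 days. Each CPM rests on few reads, since the rounded counts per library ran from 25 to 110 for Ifit1.

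The log2 fold change of Ifit1 in P195A/- against WT brains was 1.14 (SE 0.293; 95% interval 0.51 to 1.76), a 2.2-fold difference, with an unadjusted p = 0.00135 and an adjusted p = 0.221 by edgeR's quasi-likelihood test. It stood at rank 121 by p among the 19962 genes tested, of which 0.0351% passed the adjusted threshold. Ifit1 was the only one of the 4 members whose P195A/- and WT libraries did not overlap, and 9.59% of all genes had every P195A/- library above every WT library. In bulk tissue, more RNA per cell and more cells that make the RNA cannot be told apart, here and for every gene below. The log2 fold change ran between 0.98 and 1.45 over 14 alternatives, of which all gave an unadjusted p under 0.05 and none an adjusted one.

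Against P195A/P195A brains, the log2 fold change of Ifit1 in P195A/- brains was 1.42 (SE 0.275), with an unadjusted p = 9.59e-05, rank 18, and an adjusted p = 0.106. This comparison passed 0.0401% of all genes. Of the comparisons with P195A/- mice, it is the one in which both genotypes held mice of the same age. Among mice of 42 days alone, 3 P195A/- against 2 P195A/P195A, the log2 fold change of Ifit1 was 1.56 (SE 0.323) with an adjusted p = 0.58 by edgeR. Against P195A/+ brains, which carry the same single P195A allele but with a wild-type allele beside it, the value in P195A/- brains was 1.43 (SE 0.297; unadjusted p = 0.00019; adjusted p = 0.108), and 0.0301% of genes passed there. The 3 comparisons share the P195A/- libraries and are not independent of each other.

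The remaining genotypes had Ifit1 levels within each other's spread. The log2 fold change was -0.28 (SE 0.283) in P195A/P195A against WT brains, -0.30 (SE 0.301) in P195A/+ against WT brains and 0.01 (SE 0.286) in P195A/P195A against P195A/+ brains, with adjusted p = 0.899, 0.999 and 0.995 by edgeR. The adjusted threshold was passed by 0 of the 4 members in each, and by 0.0501%, 0.01% and 0.02% of all genes. The order of mean Ifit1 levels was P195A/-, WT, P195A/P195A and P195A/+, and the last 3 do not differ beyond their spread.

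**Figure D1:**
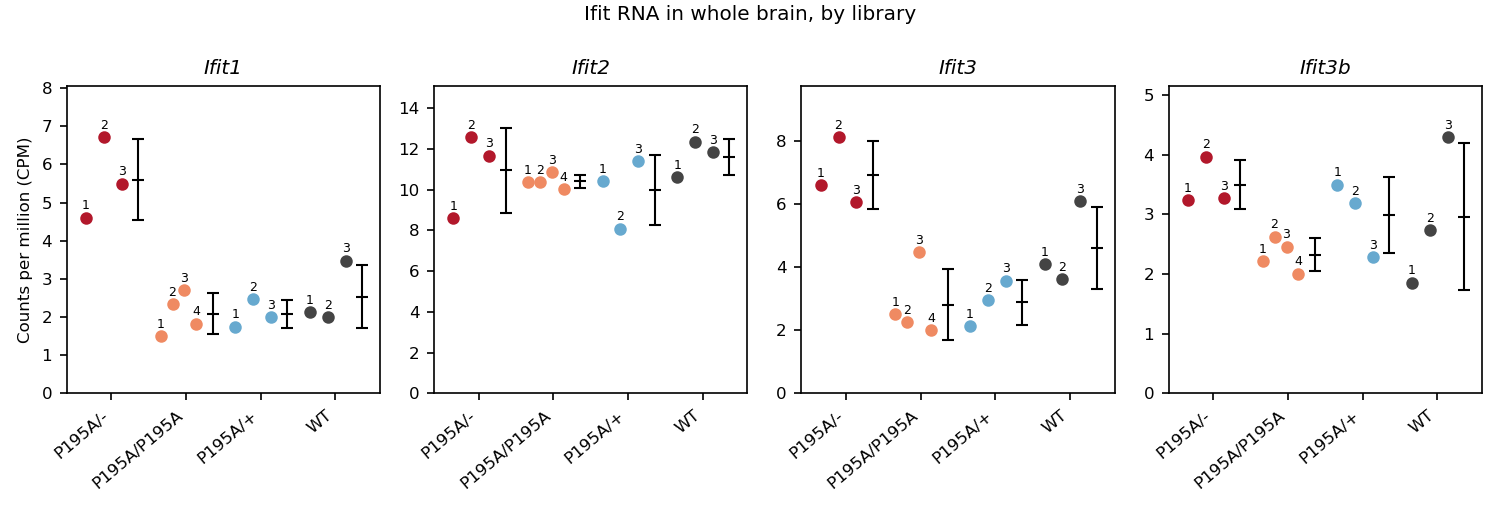
Ifit1, Ifit2, Ifit3 and Ifit3b RNA in CPM (y axis) by genotype (x axis); each point is 1 library with its replicate number, and the bar beside the points is the mean ± SD (n = 3, 4, 3 and 3). For Ifit1 the 3 P195A/- points, 4.61 to 6.71 CPM, lie above all others, whose highest is 3.48 CPM, while the Ifit2 points of all genotypes overlap.

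Ifit3, the partner of Ifit2 that in human cells also stabilises IFIT1, was at 6.60, 8.12 and 6.05 CPM in P195A/- brains, 2.52, 2.26, 4.47 and 2.01 CPM in P195A/P195A brains, 2.13, 2.95 and 3.57 CPM in P195A/+ brains, and 4.10, 3.63 and 6.10 CPM in WT brains. The P195A/- libraries lay above all P195A/P195A and P195A/+ libraries. They overlapped the WT libraries at 1 point, since WT replicate 3, at 6.10 CPM, was above P195A/- replicate 3, at 6.05 CPM.

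Ifit3 in P195A/- against P195A/P195A brains had a log2 fold change of 1.28 (SE 0.29), an unadjusted p = 0.000417 and an adjusted p = 0.225 by edgeR. Against P195A/+ brains it was 1.26 (SE 0.313; unadjusted p = 0.00098; adjusted p = 0.165), and against WT brains 0.58 (SE 0.305; unadjusted p = 0.0743; adjusted p = 0.519). Without P195A/P195A replicate 3, at 4.47 CPM, the log2 fold change against that genotype was 1.61 and the adjusted p = 0.0389. Without WT replicate 3, the value against WT brains was 0.84, with an adjusted p = 0.662. Among mice of 42 days alone, Ifit3 in P195A/- against P195A/P195A brains had a log2 fold change of 1.53 and an adjusted p = 0.383.

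The Ifit3 means of P195A/P195A and P195A/+ brains, 2.81 ± 1.12 and 2.88 ± 0.721 CPM, were both under the WT mean of 4.61 ± 1.31 CPM. The log2 fold change was -0.70 (SE 0.292; unadjusted p = 0.0286; adjusted p = 0.829) in P195A/P195A against WT brains and -0.68 (SE 0.313; unadjusted p = 0.046; adjusted p = 0.999) in P195A/+ against WT brains by edgeR. Of the 4 members, Ifit3 alone had an unadjusted p under 0.05 in these comparisons, where 2.94% of all genes did and were lower in P195A/P195A brains, and 2.52% in P195A/+ brains. That p held in 8 of 16 alternatives for P195A/P195A brains, with -1.03 to -0.44 when single libraries were left out, and in 9 of 14 for P195A/+ brains. All P195A/+ libraries lay under all WT libraries for Ifit3, which was 1 of the 4 members, and 6.32% of all genes did the same. In P195A/P195A brains replicate 3 lay above 2 of the WT libraries. Between mice of 48 days alone, 2 in each genotype, the value for P195A/P195A against WT brains was -0.25. The mean Ifit3 levels ran in the order P195A/-, WT, P195A/+ and P195A/P195A, and the means ± SD of all neighbours in it overlapped.

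**Figure D2:**
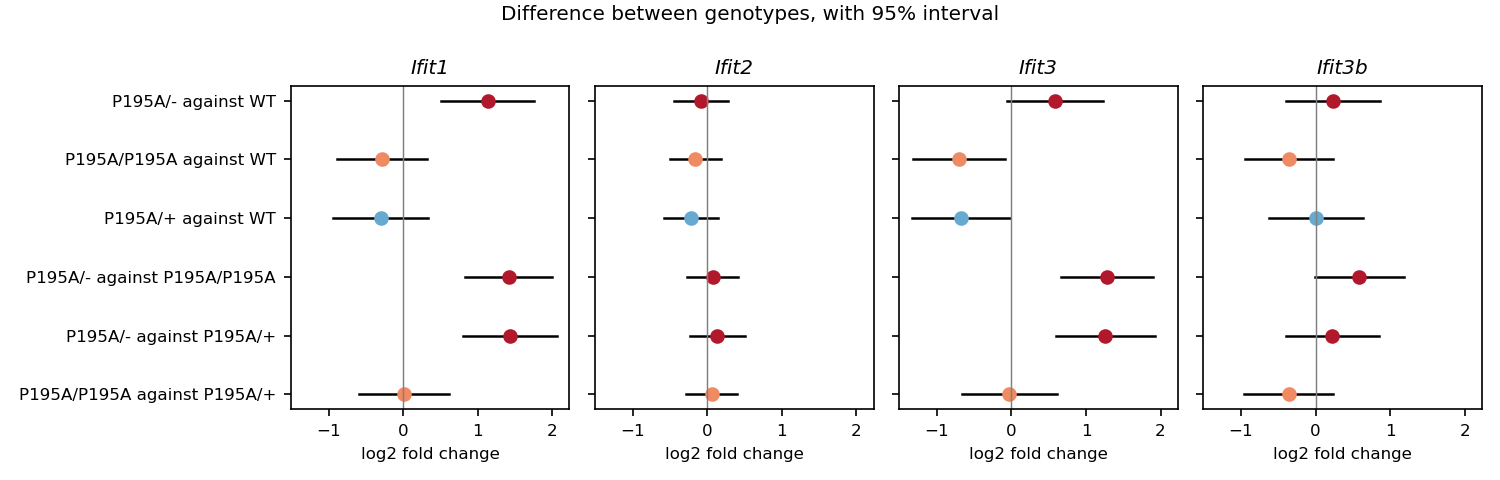
Log2 fold change (x axis) of each member in the 6 comparisons of genotypes (y axis), with its 95% interval from edgeR's fit of all 13 libraries. The intervals of Ifit1 lie above 0 in the 3 comparisons that set P195A/- against another genotype, those of Ifit3 in 2 of them, and those of Ifit2 span 0 in all 6.

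Ifit3b, the near-identical copy of Ifit3, was at 3.24, 3.97 and 3.28 CPM in P195A/- brains, 2.22, 2.63, 2.46 and 2.01 CPM in P195A/P195A brains, 3.49, 3.19 and 2.28 CPM in P195A/+ brains, and 1.85, 2.73 and 4.29 CPM in WT brains. The WT libraries spanned the range of every other genotype. The P195A/- libraries lay above all P195A/P195A libraries, with a log2 fold change of 0.59 (SE 0.281; unadjusted p = 0.053; adjusted p = 0.736 by edgeR). In P195A/- against WT brains it was 0.23 (SE 0.296; 95% interval -0.40 to 0.86). In mean level the order was P195A/-, P195A/+, WT and P195A/P195A, with no neighbours apart beyond their spread.

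Ifit3 and Ifit3b can be counted apart only in part. Their coding sequences are identical at 1198 of 1209 bases (99.1%), and 61.8% of the 31-base words of Ifit3 also occur in Ifit3b, so that Salmon has to divide such reads by estimate. Ifit3 took 64.9 to 67.2% of the estimated counts of the pair in P195A/- libraries, 46.3 to 64.5% in P195A/P195A libraries, 37.9 to 61.0% in P195A/+ libraries and 57.0 to 68.9% in WT libraries. The sum of the pair, which does not depend on that division, was 10.4 ± 1.48 CPM in P195A/- brains, 5.17 ± 1.27 CPM in P195A/P195A brains, 5.88 ± 0.259 CPM in P195A/+ brains and 7.55 ± 2.42 CPM in WT brains. Its log2 fold change in P195A/- brains was 1.00 (SE 0.225; unadjusted p = 0.000414; adjusted p = 0.218) against P195A/P195A brains, 0.81 (SE 0.241; adjusted p = 0.199) against P195A/+ brains and 0.45 (SE 0.238; adjusted p = 0.512) against WT brains by edgeR. The sum had -0.55 (SE 0.226; unadjusted p = 0.0278) in P195A/P195A against WT brains and -0.36 (SE 0.241; unadjusted p = 0.149) in P195A/+ against WT brains, so that the unadjusted call of Ifit3 in P195A/+ brains did not hold for the pair.

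Ifit2, the member known for its part in neurons, was the most abundant of the 4 in CPM. It was at 8.59, 12.6 and 11.7 CPM in P195A/- brains, 10.4, 10.4, 10.9 and 10.03 CPM in P195A/P195A brains, 10.4, 8.08 and 11.4 CPM in P195A/+ brains, and 10.6, 12.4 and 11.8 CPM in WT brains. All genotypes overlapped. The log2 fold change in P195A/- against WT brains was -0.09 (SE 0.173), with a 95% interval of -0.45 to 0.28, which leaves out the value of 1.14 that Ifit1 had in the same comparison. Over all 6 comparisons the Ifit2 values lay between -0.22 and 0.13, with adjusted p = 0.809 or above by edgeR. Its rounded counts, 138 to 262 per library, were the highest of the family, and its biological coefficient of variation was 15.3%, against 23.8 to 25.9% for the other members and 19.1% for all tested genes together. None of its 31-base words occurs in another gene, so its count does not depend on dividing shared reads. The mean levels ran WT, P195A/-, P195A/P195A and P195A/+, and no neighbours differ beyond their spread.

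A test for any difference among the 4 genotypes gave F = 12.5 and an adjusted p = 0.113 for Ifit1, F = 8.73 and an adjusted p = 0.253 for Ifit3, F = 1.5 and an adjusted p = 0.762 for Ifit3b, and F = 0.616 and an adjusted p = 0.904 for Ifit2 by edgeR's quasi-likelihood test, in which 0.115% of all genes passed. In P195A/- against P195A/P195A brains 3 of the 4 members had no overlap, all higher, where 2.64% of all genes did. In P195A/- against P195A/+ brains 2 of the 4 did so, where 8.37% of all genes did. The median log2 fold change of the 4 members was 0.41 in P195A/- against WT brains, 0.94 against P195A/P195A brains and 0.74 against P195A/+ brains, beside 0.02, 0.00 and 0.02 over all genes tested. In P195A/P195A against WT brains the median of the members was -0.32 and in P195A/+ against WT brains -0.26, beside 0.01 and 0.00 over all genes.

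Per length of exon, the order of the members changed with genotype. In CPM per kb of exon, Ifit3 stood at 3.97 ± 0.614 in P195A/- brains, ahead of Ifit2 at 2.79 ± 0.532, Ifit1 at 2.11 ± 0.399 and Ifit3b at 1.75 ± 0.206. In P195A/P195A brains Ifit2 led at 2.65 ± 0.0869, followed by Ifit3 at 1.61 ± 0.644, Ifit3b at 1.16 ± 0.136 and Ifit1 at 0.787 ± 0.201. P195A/+ brains had the same order of levels per kb, with Ifit2 at 2.54 ± 0.437, Ifit3 at 1.65 ± 0.413, Ifit3b at 1.495 ± 0.315 and Ifit1 at 0.779 ± 0.137. In WT brains Ifit2 stood at 2.96 ± 0.227 CPM per kb, Ifit3 at 2.64 ± 0.751, Ifit3b at 1.48 ± 0.617 and Ifit1 at 0.955 ± 0.308. Means ± SD overlapped between Ifit2 and Ifit1 and between Ifit1 and Ifit3b in P195A/- brains, between Ifit3 and Ifit3b in P195A/P195A and in P195A/+ brains, and between all neighbours in this order in WT brains.

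Across the 13 libraries, log2 CPM of Ifit1 and Ifit3 went together with Pearson's r = 0.876 and Spearman's rho = 0.846, given as a description because libraries of a genotype share that genotype. Without the 2 libraries farthest from the median of Ifit1, both P195A/-, r was 0.82, and over deviations from the genotype means it was 0.70. For Ifit3 and Ifit3b r was 0.526 over all libraries and 0.259 over deviations from the genotype means, and for Ifit1 and Ifit2 the same values were 0.195 and 0.16. Ifit2 and Ifit3 had r = 0.328 over all libraries and 0.205 over deviations. Leaving out the 2 libraries farthest from the median of the first gene gave 0.361 for Ifit3 and Ifit3b, -0.295 for Ifit1 and Ifit2 and 0.815 for Ifit2 and Ifit3, so that the values with Ifit2 rest on those libraries.

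**Figure D3:**
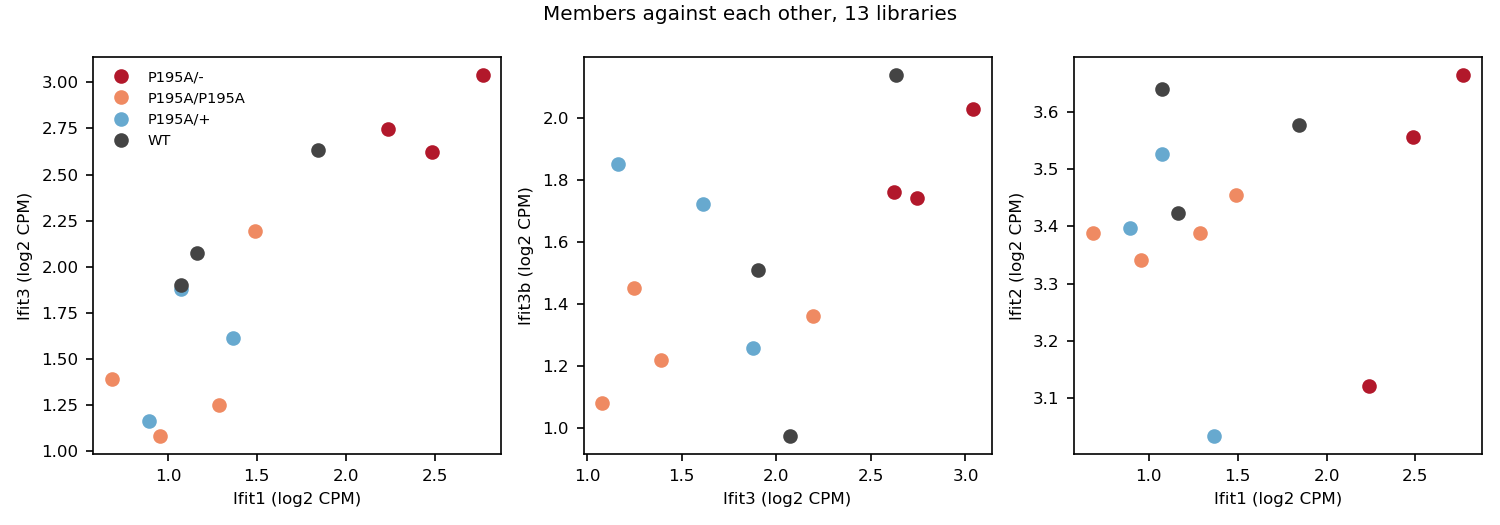
Log2 CPM of Ifit1 and Ifit3 (left), Ifit3 and Ifit3b (middle) and Ifit1 and Ifit2 (right), 1 point per library, coloured by genotype, 13 points a panel. In the left panel the P195A/- points lie at the upper right, away from the P195A/P195A and P195A/+ points (r = 0.876), while the right panel has no such order (r = 0.195).

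The Ifit1-like relatives, which lie between the members on the chromosome, were tested beside them. Ifit1bl1 averaged 1.41 ± 0.171 CPM in P195A/- brains and 1.81 ± 0.457 CPM in WT brains, which gives a log2 ratio of -0.36 (SE 0.382; adjusted p = 0.764 by edgeR). Ifit1bl2, which shares its start region and both motif matches with Ifit1, averaged 1.57 ± 0.257 CPM in P195A/- brains and 1.203 ± 0.691 CPM in WT brains, which gives a log2 ratio of 0.40 (SE 0.449; adjusted p = 0.783). The 95% interval of Ifit1bl2, -0.56 to 1.35, holds the Ifit1 value of 1.14. Of the 31-base words of Ifit1, 9.16% also occur in Ifit1bl2 and 5.23% in Ifit1bl1.

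Of 8 genes that flank the cluster, 7 were tested, and none passed in any of the 6 comparisons by edgeR or limma-voom, with an unadjusted p under 0.05 for 1 of them, higher, in P195A/- against WT brains, where 4.58% of all genes did so. Fas, a death receptor gene, had a log2 fold change of 0.83 (SE 0.379; unadjusted p = 0.0442; adjusted p = 0.454) in P195A/- against WT brains, and Acta2, the smooth muscle actin gene beside it, 0.60. Lipa, the lysosomal lipase gene next to Ifit2, was at -0.20, and Slc16a12, the transporter gene next to Ifit1, at -0.30. In P195A/- against P195A/+ brains Fas was at 1.28 (SE 0.389; unadjusted p = 0.00465; adjusted p = 0.227 by edgeR), beside 1.26 for Ifit3. Fas was the only 1 of the 7 with an unadjusted p under 0.05 there, where 5.11% of all genes had one and were higher. Against P195A/P195A brains none of the 7 had such a p. The Ch25h gene, whose enzyme makes an antiviral oxysterol, had 85 rounded counts over all libraries and was not tested.

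**Figure D4:**
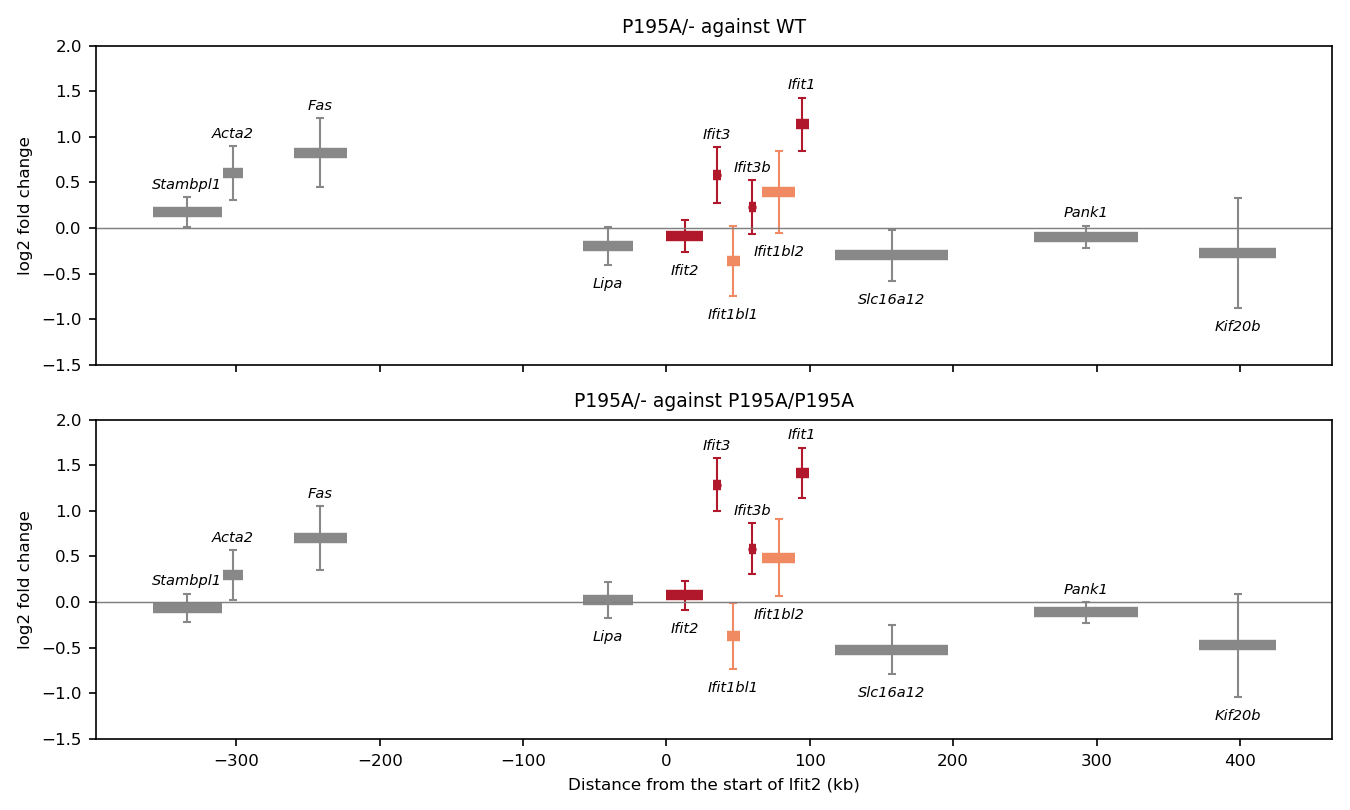
Log2 fold change (y axis, ± SE) of the Ifit members (red), their relatives (orange) and flanking genes (grey) along the locus (x axis, kb from the start of Ifit2; bar length is gene length), in P195A/- against WT brains (top) and against P195A/P195A brains (bottom). Ifit1 stands at 1.14 and 1.42 and Ifit3 at 0.58 and 1.28, with Ifit2 at -0.09 and 0.07 at the other end of the cluster.

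No listed A-to-I editing site fell within the 6 genes of the Ifit cluster. The authors' deposited comparison tables listed 48021 to 52239 sites each, of which 1040 to 1142 lay on chromosome 19, and 0 lay in these genes. The nearest listed site was 29.8 kb away, in the table of P195A/+ against WT, and 1719.6 to 1786.8 kb away in the other 3 tables. The tables hold only sites that passed the authors' own selection, so this gives no limit on editing at the locus.

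The rest of the interferon pathway was read in the order of its steps. Its gene lists were written from textbook knowledge with earlier results of these data known, so that their counts are descriptions. Of 20 interferon genes, the ligands, none had enough counts to be tested, 15 were at 0 in every library, and the rest summed to 8 rounded counts over all 13 libraries. Ifnk, an interferon of skin, had 4 of these, 2 in P195A/+ and 2 in WT brains, and Ifna2 had 1, in a P195A/- brain. Of 6 receptor genes 5 were tested, and none passed by edgeR or limma-voom or had an unadjusted p under 0.05. In P195A/- against WT brains Il10rb, a subunit of the type III receptor, was at -0.44, Ifngr1, of the type II receptor, at -0.13, and Ifnar2, of the type I receptor, at 0.14 on the log2 scale.

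Among 10 signal transducers, all tested, none passed in any comparison by edgeR or limma-voom, and 1 had an unadjusted p under 0.05, higher, in P195A/- against WT brains, where 4.58% of all genes did so. Irf7, the transcription factor that amplifies interferon production, averaged 2.64 ± 0.562 CPM in P195A/- brains and 1.16 ± 0.214 CPM in WT brains, a log2 fold change of 1.18 (SE 0.407; unadjusted p = 0.0103; adjusted p = 0.314 by edgeR). Stat2, a transcription factor gene of interferon signalling, was at 0.29 and the kinase gene Jak2 at -0.18 in the same comparison. Of 11 nucleic acid sensors 10 were tested and none passed by those tools, with 2 at an unadjusted p under 0.05 in that comparison, both higher, beside the same 4.58%. Ifih1, the gene for MDA5, had a log2 fold change of 0.67 (SE 0.258; unadjusted p = 0.0198; adjusted p = 0.364), Ddx58, the gene for RIG-I, 0.63, and Dhx58, the gene for LGP2, 0.83. Dhx58 had another order of genotypes than Ifit1, at 1.03 ± 0.163 CPM in P195A/- brains, 1.64 ± 0.362 CPM in P195A/P195A brains, 0.598 ± 0.0696 CPM in P195A/+ brains and 0.581 ± 0.209 CPM in WT brains. Its log2 fold change was 1.49 (SE 0.366; unadjusted p = 0.000906; adjusted p = 0.694) in P195A/P195A against WT brains and -0.66 (SE 0.35; unadjusted p = 0.0764) in P195A/- against P195A/P195A brains. Of 5 inhibitors of the pathway 4 were tested and none passed, with 0 at an unadjusted p under 0.05 there, and Usp18, which shuts off receptor signalling, was at 0.68 (SE 0.35; adjusted p = 0.512), Trex1, which degrades cytosolic DNA, at 1.26 (SE 1.08) and Socs3, which dampens cytokine signalling, at 0.16 (SE 0.415). DESeq2 passed none of these flanking, receptor, transducer, sensor and inhibitor genes, but in P195A/- against WT brains it gave no adjusted p to 7 of 7, 4 of 5, 9 of 10, 10 of 10 and 4 of 4 of them, and against P195A/+ brains to 4, 2, 3, 7 and 4.

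Among 46 other interferon-induced effectors, 40 were tested and none passed an adjusted p under 0.05 in any comparison by edgeR or limma-voom, while DESeq2 passed Ifi44 in P195A/- against P195A/P195A brains and gave no adjusted p to the 40 in P195A/- against WT brains and to 35 of them against P195A/+ brains. In P195A/- against WT brains 36 of the 40 had a log2 fold change above 0, with a median of 0.36 beside 0.02 over all genes, and 6 had an unadjusted p under 0.05, all higher, where 4.58% of all genes did. Against P195A/P195A brains 37 of 40 were above 0, with a median of 0.57, and 17 had such a p, where 3.19% of all genes did. Against P195A/+ brains 35 of 40 were above 0, with a median of 0.65, and 18 had such a p, where 5.11% of all genes did. In P195A/P195A against WT brains 29 of 40 were under 0 (median -0.16), and 5 had such a p, all lower, where 2.94% of all genes did. In P195A/+ against WT brains 33 of 40 were under 0 (median -0.24), and 6 had such a p, all lower, where 2.52% of all genes did. These lists were written with results of these data known, and their counts are descriptions.

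The effectors with the smallest p in P195A/- against WT brains were Ifi27l2a, Ifi44 and Ifi204. Ifi27l2a averaged 0.899 ± 0.218 CPM in P195A/- brains and 0.182 ± 0.0837 CPM in WT brains, a log2 fold change of 2.24 (SE 0.596; unadjusted p = 0.00172; adjusted p = 0.233 by edgeR). Ifi44 was at 1.52 (SE 0.416; adjusted p = 0.25) and Ifi204, a DNA sensor of the IFI200 family, at 1.52 (SE 0.536; adjusted p = 0.319). The log2 fold change of Ifit1 lay under these 3 and above the other 37 effectors tested in P195A/- against WT brains, while that of Ifit2 was -0.09. The gene Isg15, whose small protein is conjugated to others, had too few counts to be tested, with 25 rounded counts over 3 P195A/- libraries, 13 over 4 P195A/P195A libraries, 3 over 3 P195A/+ libraries and 9 over 3 WT libraries.

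**Figure D5:**
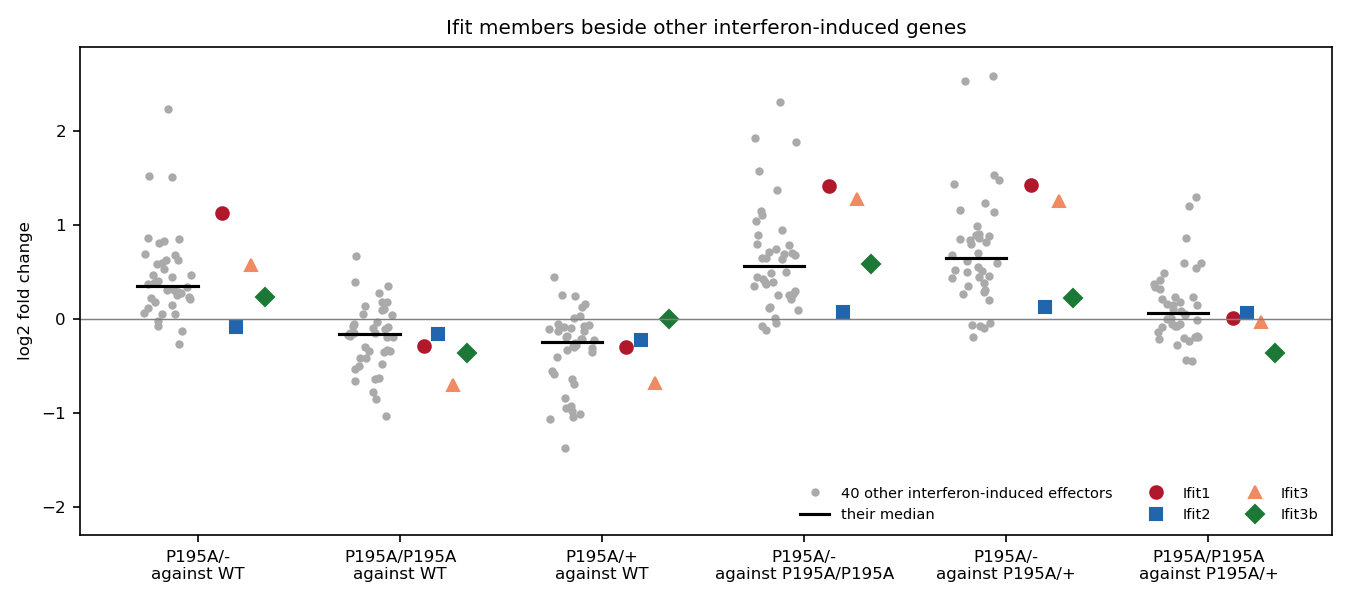
Log2 fold change (y axis) of 40 other interferon-induced effectors (grey points, with their median as a line) and of the 4 Ifit members (coloured symbols) in the 6 comparisons (x axis). Ifit1 lies above the effector median in the 3 comparisons that involve P195A/-, at 1.14 against a median of 0.36 in P195A/- against WT brains, and Ifit2 lies under it there, at -0.09.

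The genes whose log2 CPM across the 13 libraries was most like the mean of the 4 members were found among 19958 genes, for which the 95th percentile of r was 0.48 and the 99th was 0.635. The closest 10 were Gbp6 (r = 0.911), Vipr1 (0.91), Rnf213 (0.89), Bst2 (0.884), Drc1 (0.877), Fap (0.848), H2-T24 (0.83), H2-Q6 (0.827), Gm10044 (0.826) and Ulk4 (0.82). Gbp6 is an interferon-induced GTPase, Bst2 encodes tetherin, which holds budding virus at the cell surface, and H2-T24 and H2-Q6 are MHC class I genes. Because the 10 were picked for likeness to the members over these same libraries, their differences between genotypes describe that choice and give no independent test. In P195A/- against P195A/P195A brains Gbp6 had a difference of 1.11 on the log2 scale (SE 0.244; adjusted p = 0.202 by edgeR), and against WT brains 0.41 (adjusted p = 0.595). Rnf213, a ubiquitin ligase gene, had 0.51 (SE 0.101; adjusted p = 0.121) and 0.34 (adjusted p = 0.284) in the same comparisons. Vipr1 had 0.74 (SE 0.189; adjusted p = 0.345) and 0.66 (adjusted p = 0.276) there, and Drc1 0.75 (SE 0.214; adjusted p = 0.471) and 0.66 (adjusted p = 0.319), so that both lay above Gbp6 against WT brains. Fap had 0.615 and 0.36, and Ulk4 0.65 and 0.40. Bst2, H2-Q6 and Gm10044 rest on few reads, at mean levels of 0.80, 0.43 and 0.38 CPM.

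Taken singly, the members had different nearest genes. Ifit3 was closest to Bst2 (r = 0.91) and Irgm1 (0.89), an interferon-induced GTPase, and Ifit1 to Drc1 (0.926), a gene of motile cilia. Ifit2 was closest to Pdk3 (r = 0.926), a mitochondrial kinase gene, and Ifit3b to Gm18852 (0.853). No gene of the interferon lists was among the nearest 5 of Ifit2 or Ifit3b. The nearest 5 of Ifit1 held none either, apart from the member Ifit3. These r values describe 13 libraries of 4 genotypes and carry no test.

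Markers of cells that could carry Ifit RNA were read in the same libraries. Summed microglia markers, 12 genes, ranged over 274 to 299 CPM in P195A/- brains and 280 to 292 CPM in WT brains, with P195A/P195A brains at 228 to 366 CPM and P195A/+ brains at 263 to 296 CPM. Summed endothelial and pericyte markers, also 12 genes, ranged over 436 to 452 CPM in P195A/- brains, 376 to 468 CPM in P195A/P195A brains, 412 to 462 CPM in P195A/+ brains and 404 to 435 CPM in WT brains, so that all P195A/- libraries lay just above all WT libraries. Summed oligodendrocyte markers, 8 genes, were at 7314 to 7815 CPM in P195A/- brains, 6163 to 6812 CPM in P195A/P195A brains, 6659 to 8028 CPM in P195A/+ brains and 6082 to 6847 CPM in WT brains. All P195A/- libraries thus lay above all WT and all P195A/P195A libraries for these, by more than for the endothelial and pericyte markers. Summed astrocyte markers, 8 genes, were at 6989 to 7654 CPM in P195A/- brains, 7020 to 7863 CPM in P195A/P195A brains, 7826 to 8477 CPM in P195A/+ brains and 7961 to 8719 CPM in WT brains. The part of these in the Ifit levels was not tested. Blood leukocyte markers summed to 7.97 to 12.9 CPM in P195A/- brains, 5.62 to 13.8 CPM in P195A/P195A brains, 8.18 to 11.8 CPM in P195A/+ brains and 11.02 to 13.3 CPM in WT brains, and 7 of those 12 genes had too few counts to be tested.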

How the data were processed

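Whole-brain RNA of 13 mice was sequenced. The submitters' processing notes name fastp 0.19.5, Salmon, edgeR and the build mm10. What the authors deposited is 1 table of estimated counts by gene, which Salmon made from the reads per those notes, and 99.5% of its nonzero values are not whole. The aligner settings and annotation were not given in the sources used here. Groups, sex and age follow the labels. P195A/- is the shorter of 2 genotype labels, while the longer one puts P195A on both chromosomes and adds AdarKO/+ without explanation. The authors' deposited tables of editing sites from JACUSA2 2.0.0-RC5 were used for site positions only.

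Estimated counts were rounded and tested with edgeR 4.0.16 (R 4.3.3), using TMM scaling, filterByExpr by genotype with a minimum count of 10 and robust quasi-likelihood fits. One fit of all 13 libraries gave the 6 comparisons of genotypes and the test of any difference. P-values were adjusted by Benjamini-Hochberg over 19962 genes, and an adjusted p under 0.05 was the threshold. All 4 Ifit members passed the filter. CPM used TMM-scaled library sizes and log2 CPM a prior count of 2. The fit was checked on simulated data. The design has no term for age. Sequence words and exon lengths came from GENCODE M21, to which 51482 of 54307 entries matched by gene ID, and promoter windows from RefSeq.

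Members, lists and tests were chosen with earlier results of these data known. Named genes are the 4 members, their relatives and flanking genes, the 3 smallest p in P195A/- against WT for each pathway list (of the ligands, those with counts), and the 10 genes most like the mean of the members; others were chosen after their values were seen. Alternatives were upper-quartile scaling, no filter, sex or replicate number as terms, females only, 2 genotypes only, each library left out, mice of 1 age, Ifit3 and Ifit3b summed, limma-voom (limma 3.58.1) and DESeq2 1.42.0. P-values measure the spread between animals.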

Additional observations from a re-analysis of the deposited data

How the results depend on the processing

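Over 25 settings, Ifit1 in P195A/- brains kept its direction against WT, P195A/P195A and P195A/+ brains in all 14, 17 and 15 alternatives that could be fitted, and Ifit3 did so too (0.44 to 0.93, 1.15 to 1.61 and 1.08 to 1.53 on the log2 scale). Whether a member passed an adjusted p under 0.05 depended on the setting. Without a filter on low counts, 1 member passed in the test of any difference (Ifit1, adjusted p = 0.0234), 1 in P195A/- against P195A/+ (Ifit1, adjusted p = 0.0471) and 2 in P195A/- against P195A/P195A (Ifit1, adjusted p = 0.0311, and Ifit3, adjusted p = 0.0496), where 54, 49 and 29 genes passed in all, against 23, 6 and 8 with the filter. DESeq2 passed 2 members in P195A/- against P195A/P195A (Ifit1, adjusted p = 0.00195, and Ifit3, adjusted p = 0.0147), and gave Ifit1 and Ifit3 no adjusted p against WT or P195A/+, because its own filter left them out. With single libraries left out, 0 to 2 members passed in the test of any difference and 0 to 1 in P195A/- against P195A/P195A, the higher numbers without P195A/P195A replicate 3 (Ifit1, adjusted p = 0.042, and Ifit3, adjusted p = 0.037, in the test of any difference). The cause was not tested. Genes passing differed more between tools, with 200 by DESeq2 and 7 by edgeR in P195A/- against WT, 52 and 8 against P195A/P195A, and 289 and 6 against P195A/+. In P195A/P195A against WT these were 19 and 10, in P195A/+ against WT 19 and 2, and in P195A/P195A against P195A/+ 38 and 4.

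Some small log2 fold changes changed sign, none with an adjusted p under 0.05. Ifit1 in P195A/+ against WT was 0.031 in females, and in P195A/P195A against WT 0.136 at 48 days. Ifit1 in P195A/P195A against P195A/+ was 0 without a filter, -0.067 in females, -0.002 by limma-voom and -0.116 at 42 and 43 days, a setting chosen after seeing the data. Ifit3 in P195A/P195A against P195A/+ was 0.242 in females, and Ifit3b in P195A/+ against WT was -0.007 with upper-quartile scaling. With single libraries left out, Ifit1 ranged from -0.439 to 0.011 in P195A/+ against WT, -0.44 to 0.028 in P195A/P195A against WT and -0.143 to 0.152 in P195A/P195A against P195A/+. Ifit2 ranged from -0.201 to 0.055 in P195A/- against WT, -0.038 to 0.218 against P195A/P195A and -0.005 to 0.273 against P195A/+, and from -0.078 to 0.166 in P195A/P195A against P195A/+. Ifit3 ranged from -0.353 to 0.154 in P195A/P195A against P195A/+. Ifit3b ranged from -0.019 to 0.6 in P195A/- against WT, -0.606 to 0.025 in P195A/P195A against WT and -0.24 to 0.382 in P195A/+ against WT.

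With the replicate block, Ifit1 in P195A/- against WT brains was 1.15 (adjusted p = 0.206), Ifit3 0.63 (adjusted p = 0.406), and Ifit3 in P195A/P195A against P195A/+ brains 0.087, and no member passed. The block moved the genes passing in the test of any difference to 13, against 23 without it. Replicate numbers were not taken as pairs in the main fit. Of 18 same-numbered pairs, 14 had a correlation of deviations above 0 and 4 above 0.1 (mean 0.05). Of 45 other pairs, 18 and 2 did (mean -0.02). A library matched its own number best in 19 of 36 cases. Correlations were thus somewhat higher within a number than between numbers, and the fit with the block is given above. Replicate 3 was the male in WT, P195A/+ and P195A/- mice. Counts of 25 to 135 per library for Ifit1, Ifit3 and Ifit3b limit their precision.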
